A study of Arabidopsis thaliana with 36 samples.

Results

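A set of 77 loci is described here whose transcripts were lower after 24 h of auxin in roots of the Arabidopsis thaliana mutant slr-1 and were not lower, or only slightly so, in roots of CASP1::shy2-2/slr-1, the same mutant with a transgene (hereafter the shy2-2 line). The loci were selected on measured values, and that selection is no finding. Counts per 1e+06 reads (CPM) were 1e+06 times the count of a locus over the sum of all loci of its library, and the level of a group was the log2 of its mean CPM plus 1. A locus was kept where the level at 24 h minus the untreated control was at most -1.5 in slr-1 and at least -0.5 in the shy2-2 line. Of 32678 loci counted, 575 met the slr-1 limit and 77 met both. Another 245 were at or under -1.5 in both genotypes, and 253 lay between the limits in the shy2-2 line. The median of the 77 was -2.03 in slr-1 and -0.16 in the shy2-2 line. All 77 also passed the filter on low counts that the tests used, which kept 20939 loci.

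Root sections were taken from 7-day-old Col-0 seedlings after removal of the shoot and of the root tip, about 3 mm long. All 12 groups, controls included, carried slr-1, and 6 of them carried CASP1::shy2-2 as well. Both genotypes were harvested without treatment (0 h, the controls) and at 2, 4, 8, 16 and 24 h of exposure to 10 µM 1-naphthaleneacetic acid (NAA), a synthetic auxin. Each group had 3 libraries, 36 in all. There was no wild type among these groups, and the labels do not say how many independent transformants were used or whether the 3 libraries came from separate cultures, so that p-values measure the spread between these samples, which may be technical.

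As background, the slr-1 allele makes the Aux/IAA repressor IAA14 resistant to auxin-triggered degradation, and roots that carry it form no lateral roots. The transgene expresses shy2-2, a stabilised form of the related repressor IAA3 (SHY2), from the promoter of CASP1, which is active in the differentiating endodermis, the cell layer that surrounds the vascular cylinder. Endodermal cells first form the Casparian strip, a lignified belt in the wall scaffolded by CASP membrane proteins, and later coat their walls with suberin. Suberin is a polyester of long-chain hydroxy acids, alcohols, glycerol and ferulate. Cytochromes P450 of the CYP86 family hydroxylate its fatty acids, acyltransferases of the GPAT family join them to glycerol, and GDSL esterases act in the wall, where they have been linked to assembly and removal of the polymer.

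The results below turn most often on genes of this lipid pathway, and the stretches upstream of 4 of them are shown because the 4 changed their order between the genotypes during the NAA course. CYP86A1 and CYP86B1 are fatty acid hydroxylases, GPAT4 is an acyltransferase that acts on both cutin and suberin-type monomers, and AT5G12420 is annotated as a wax ester synthase-like O-acyltransferase. The windows of 300 bases before the annotated start (RefSeq, TAIR10.1) were chr5:23768112-23768411 for CYP86A1, chr5:7805969-7806268 for CYP86B1, chr1:224352-224651 for GPAT4 and chr5:4026850-4027149 for AT5G12420. All 4 lie on the minus strand and are printed 5′ to 3′ along the gene, and capitals mark matches to the motifs named after them.
CYP86A1: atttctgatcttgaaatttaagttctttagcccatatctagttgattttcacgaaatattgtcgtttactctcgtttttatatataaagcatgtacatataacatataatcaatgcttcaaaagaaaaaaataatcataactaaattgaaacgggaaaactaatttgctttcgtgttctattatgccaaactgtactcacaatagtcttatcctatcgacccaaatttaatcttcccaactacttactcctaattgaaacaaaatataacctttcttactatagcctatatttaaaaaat
CYP86B1: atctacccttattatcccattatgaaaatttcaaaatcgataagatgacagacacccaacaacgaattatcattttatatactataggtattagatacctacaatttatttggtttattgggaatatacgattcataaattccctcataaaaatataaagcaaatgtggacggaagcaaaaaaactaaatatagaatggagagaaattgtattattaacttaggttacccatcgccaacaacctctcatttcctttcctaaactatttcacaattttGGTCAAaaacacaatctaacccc
GPAT4: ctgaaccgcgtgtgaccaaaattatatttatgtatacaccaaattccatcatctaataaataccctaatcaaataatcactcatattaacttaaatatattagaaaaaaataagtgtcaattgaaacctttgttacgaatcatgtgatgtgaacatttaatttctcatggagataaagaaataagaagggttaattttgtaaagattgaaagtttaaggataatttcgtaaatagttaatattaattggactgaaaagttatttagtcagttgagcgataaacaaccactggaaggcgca
AT5G12420: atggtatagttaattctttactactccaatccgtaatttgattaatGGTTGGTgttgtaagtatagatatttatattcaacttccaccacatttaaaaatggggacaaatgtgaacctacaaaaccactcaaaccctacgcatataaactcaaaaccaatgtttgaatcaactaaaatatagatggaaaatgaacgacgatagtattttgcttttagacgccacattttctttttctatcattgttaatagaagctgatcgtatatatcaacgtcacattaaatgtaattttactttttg
Searched on both strands were TGTCTC and TGTCGG (auxin response elements), ACCNACC and ACCTAAC (AC elements of MYB factors), CACGTG (G-box) and TTGACC and TTGACT (W-boxes, which share their first 5 letters). CYP86B1 held GGTCAA, the reverse of TTGACC, with its leftmost base 23 bases before the start, and AT5G12420 held a reverse match to ACCNACC 254 bases before it. No listed motif was in the windows of CYP86A1 and GPAT4. Over the set, TGTCTC was in 11 of 75 protein-coding windows (14.7%) and in 12.8% of the 20312 windows of tested genes, TGTCGG in 4.0 and 5.38%, ACCNACC in 13.3 and 7.40%, ACCTAAC in 6.67 and 2.88%, CACGTG in 6.67 and 7.89%, TTGACC in 17.3 and 14.1%, and TTGACT in 18.7 and 21.8%. These are counts of letters and no test was made.

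Reads counted in genes numbered 28105042 to 48956957 per library. The mean correlation of a library with the others of its group was lowest for shy2-2 line 2 h replicate 2 (0.976) and 16 h replicate 3 (0.979), and slr-1 16 h replicate 3 and control replicate 3 also stood somewhat apart (0.986 each). Of the 77 loci, 49 had their highest slr-1 control value in replicate 3, and 54 had their highest shy2-2 line control value in replicate 2. Replicate 3 of slr-1 was also the highest at 47 loci at 4 h, 43 at 8 h and 52 at 16 h, and its code carries the suffix n at these times but not in the controls. In the shy2-2 line, 2 h replicate 2 was the highest at 41 loci and 16 h replicate 3 at 37. IAA14 stood at 5.25, 4.81 and 6.80 CPM in untreated slr-1 and at 6.11, 8.68 and 5.66 CPM in controls of the shy2-2 line. At 2 h it held 32.5, 25.5 and 22.3 CPM in slr-1 against 4.67, 9.26 and 3.27 CPM. At 24 h the genotypes overlapped, at 23.1, 16.0 and 14.6 CPM in slr-1 against 24.8, 18.7 and 15.5 CPM. IAA3 stood at 41.3, 37.6 and 39.4 CPM and at 39.3, 53.8 and 42.5 CPM. Both mutations alter the protein, and reads of shy2-2 and of the native gene fall on the same locus, so these counts do not check the genotype labels. CASP1, whose promoter drives the transgene, stood at 20.8, 10.3 and 57.2 CPM in slr-1 controls and 41.7, 75.6 and 43.9 CPM in controls of the shy2-2 line. It was already lower at 8 h, at 1.67, 0.394 and 0.739 CPM in slr-1 and 5.09, 4.25 and 1.05 CPM in the shy2-2 line. All 6 libraries of 24 h held between 0.562 and 1.01 CPM. How much shy2-2 was present at the later times was not measured.

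Before NAA the 77 loci were not equally expressed in the 2 genotypes, but the control and 24 h levels were used in the selection. The counts in this paragraph thus partly follow from it. The mean in the untreated shy2-2 line was under 0.5 times that of untreated slr-1 at 27 loci, between 0.5 and 2 times at 49 and over 2 times at 1. At 24 h, 56 loci stood at least 2 times higher in the shy2-2 line than in slr-1. For 16 of the 27 loci that started low, the 24 h mean of the shy2-2 line was under 2 times that of slr-1, so that at these the phrase "lower in slr-1 alone" describes a low start in the shy2-2 line and not a level that was held up. The control and 24 h libraries did not overlap at 76 of the 77 loci in slr-1, which the selection itself favours. In the shy2-2 line they did not overlap, in either direction, at 38. The shares over all loci were not counted, so none of the counts in this paragraph is read as a result about the set.

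**Figure D1:**
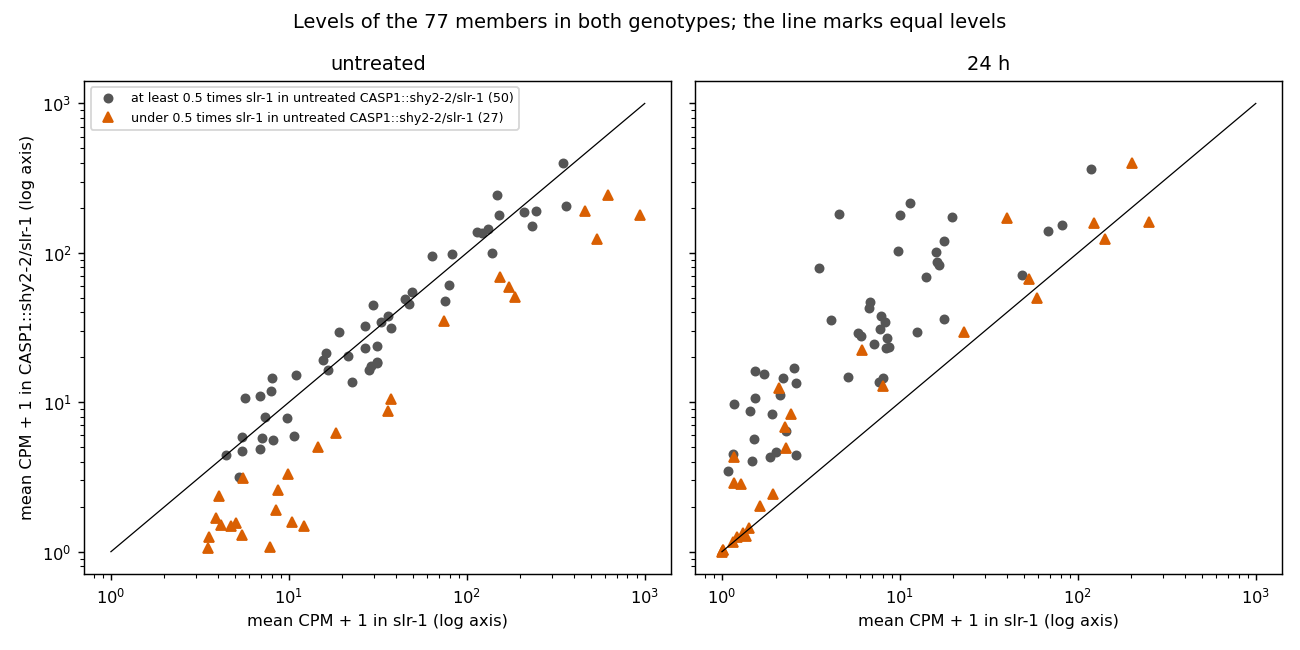
Mean CPM plus 1 of the 77 loci in slr-1 (x axis) and the shy2-2 line (y axis), both on log axes, in untreated roots (left) and after 24 h of NAA (right), each point 1 locus and the mean of 3 libraries. The 27 triangles started below 0.5 times the slr-1 level, and several of them lie near the line of equal levels at 24 h, while most of the 50 circles lie above it.

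In slr-1 the median level of the set fell late, though some loci fell early. The control and 24 h values chose the loci, so the ends of this course follow in part from the selection. The median of the 77 group means was 25.6 CPM in controls, 25.8 at 2 h, 23.7 at 4 h, 32.1 at 8 h, 15.7 at 16 h and 4.08 at 24 h. In the shy2-2 line the same medians were 17.3, 21.4, 17.3, 23.5, 23.6 and 16.0 CPM. The highest slr-1 group was the untreated control at 25 loci, 8 h at 24, 4 h at 14, 2 h at 9 and 16 h at 5, and the lowest was 24 h at 63. The selection favours the last count, and shares over all loci were not counted. Among loci that fell early in slr-1, AT2G28780 had means of 359 CPM in controls and 88.6 at 2 h. AT1G78460 had 11.2 CPM in controls, 3.26 at 2 h and 0.851 at 4 h, and AT4G36850 had 9.46, 3.48 and 0.769. In the shy2-2 line the highest group was most often 16 h (26 loci), and 24 h was the lowest at 28. Levels spanned a wide range, with 18 loci at 100 CPM or more and 29 under 10 CPM in slr-1 controls, and 24 loci stood under 1 CPM in slr-1 at 24 h. In such bulk samples fewer cells of a type and less RNA per cell cannot be told apart.

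**Figure D2:**
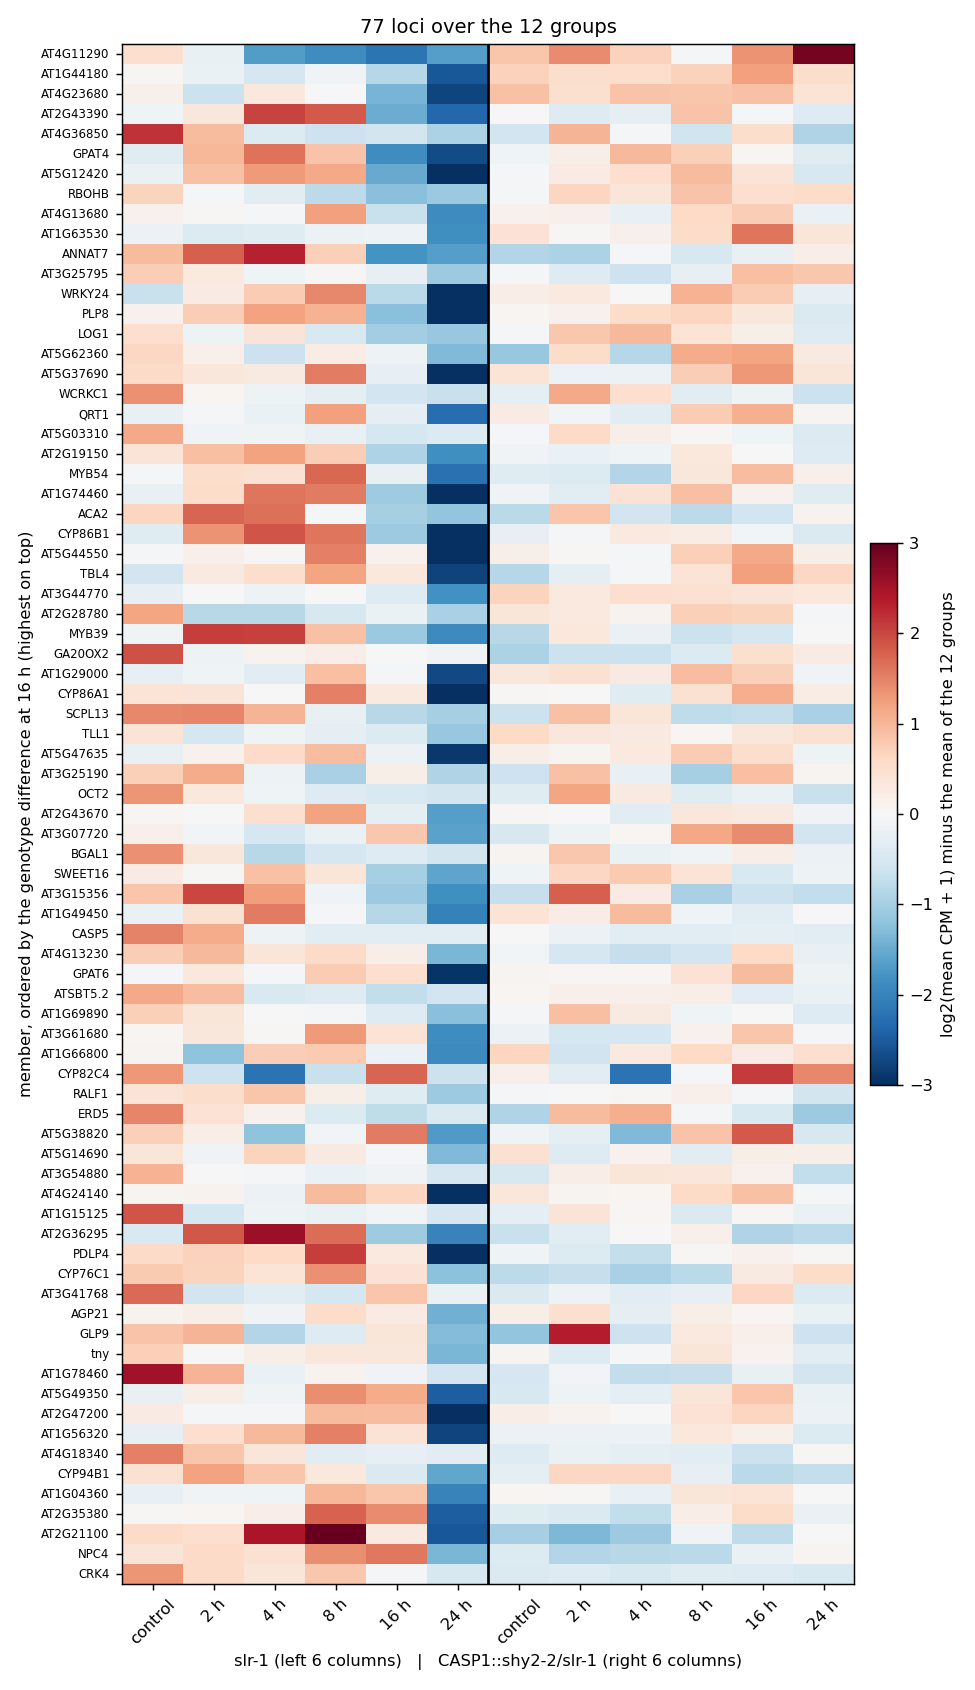
Level of each of the 77 loci (rows) in the 12 groups (columns, slr-1 on the left and the shy2-2 line on the right), as log2(mean CPM + 1) minus the mean of that row, with rows ordered by the genotype difference at 16 h. In slr-1 the 24 h column is the lowest of 6 at 63 loci, which the selection favours. Most rows in the upper part of the plot are already low at 16 h in slr-1 alone.

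The libraries of 2, 4, 8 and 16 h were not used in the selection, and the genotypes were compared within each of these times with edgeR's quasi-likelihood test over all 20939 loci, called at a Benjamini-Hochberg adjusted p under 0.05. At 2 h, 25 of the 77 loci were lower in the shy2-2 line than in slr-1, against 9.22% of all loci tested, and 9 were higher, against 9.05%. At 4 h, 26 were lower (8.84% of all loci) and 7 higher (7.18%). At 8 h, 23 were lower (8.08%) and 11 higher (6.58%). The order was the opposite at 16 h, when 29 were higher in the shy2-2 line (3.58% of all loci) and 3 were lower (5.08%). The median log2 difference of the 77 at 16 h was 0.61, beside 0.00 over all loci tested. The count of higher loci at 8 h was 6 with the 2 groups fitted alone, and it was 4 without slr-1 8 h replicate 1, 4 without replicate 2, 4 without shy2-2 line 8 h replicate 2 and 7 without replicate 1. At 4 h it was 4 without slr-1 4 h replicate 1 and 11 without replicate 3, and at 2 h it was 4 without slr-1 2 h replicate 1 or 2 and 5 without shy2-2 line 2 h replicate 3. The 3 lower loci at 16 h were 1 without replicate 3 of both genotypes.

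From 8 to 16 h of NAA, 37 of the 77 fell in slr-1 and 1 rose, against 5.96% and 3.85% of all loci tested. In the shy2-2 line over the same interval 6 fell and 6 rose, against 7.33% and 4.01%. The median log2 change of the 77 was -0.83 in slr-1 and 0.10 in the shy2-2 line. From 2 to 16 h, 41 fell and 7 rose in slr-1, where 23.7% and 27.2% of all loci did, and 16 fell and 21 rose in the shy2-2 line, where 26.2% and 27.3% did. The libraries of the 2 times differ in more than time. Codes of all 3 slr-1 libraries of 2 h end in the suffix n, as do 2 of the shy2-2 line (the other ends in x), against 1 of 3 in each genotype at 16 h, and what the suffix means is not given in the sources used here. At 4 and 8 h it ends 2 of 3 codes of the shy2-2 line and 1 of 3 of slr-1, so the genotype differences there are not balanced for it. With the suffix n as a term of the fit the rises from 2 to 16 h numbered 12 in slr-1 and 35 in the shy2-2 line, and with the compared groups fitted alone they numbered 12 and 21 and the falls in the shy2-2 line 5. From 8 to 16 h the suffix term gave 3 rises in slr-1 and 11 in the shy2-2 line, and the compared groups alone gave 2 rises in slr-1 and 3 rises and 2 falls in the shy2-2 line. The part of the suffix in these counts was not tested further. The test of the difference itself, the interaction of genotype with the change from 2 to 16 h, called 27 of the 77 in favour of the shy2-2 line and 0 in the other direction, against 2.63% and 2.41% of all loci. With the suffix term the interaction called 35 and 0, and with the compared groups alone 28 and 0. The shares of all loci given here are those of the main fit and were not counted under the other fits. Whether those fits call more loci in general was thus not tested. Its median over the 77 was 0.95 on the log2 scale. Without shy2-2 line control replicate 2 the count in the other direction was 1. The 1 locus that rose in slr-1 from 8 to 16 h was not called without slr-1 16 h replicate 3 or 8 h replicate 3, and 2 were called without slr-1 4 h replicate 3. The rises from 2 to 16 h in slr-1 were 4 without slr-1 2 h replicate 3, and the falls from 8 to 16 h in the shy2-2 line were 12 without 16 h replicate 3 and 1 without replicate 1 or without replicate 2 of that group.

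**Figure D3:**
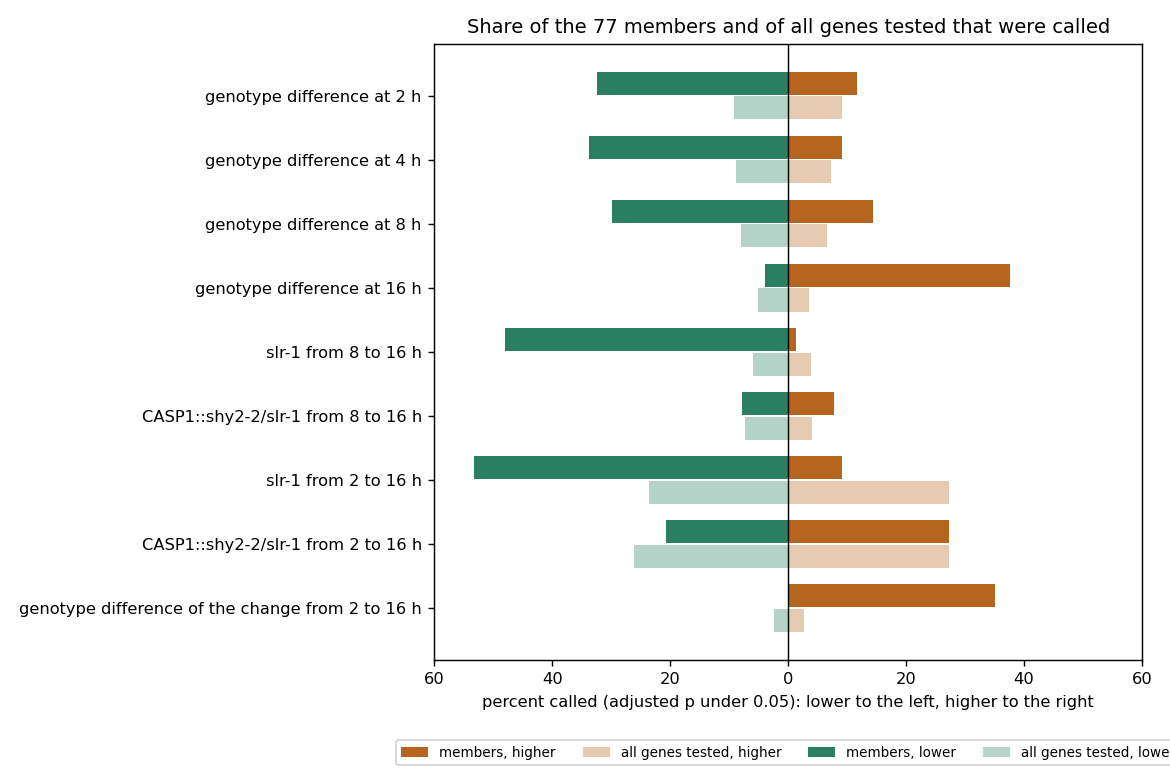
Percent of the 77 loci (dark bars) and of all 20939 loci tested (pale bars) called at an adjusted p under 0.05 in each of 9 comparisons, lower to the left and higher to the right; a genotype difference is the shy2-2 line minus slr-1. For the genotype differences the longer dark bar is the left one at 2, 4 and 8 h and the right one at 16 h (29 higher, 3 lower). The shorter dark bars to the right stand for 9, 7 and 11 loci higher at 2, 4 and 8 h.

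The change of order was also counted gene by gene. Lower in the shy2-2 line at 1 or more of 2, 4 and 8 h were 34 loci (16.6% of all loci tested), and 15 were higher (15.1%). Of the 34, 16 were lower at each of these times (2.98% of all loci tested). A set of 13 was lower at 1 or more of these times and higher at 16 h (0.43% of all loci): CYP86A1, CYP86B1, GPAT4, AT5G12420, AT1G74460, PLP8, ANNAT7, MYB54, WRKY24, AT2G19150, AT2G43390, AT2G43670 and the noncoding locus AT3G25795. Of these 13, 2 had a low start in the untreated shy2-2 line (under 0.5 times slr-1), as had 12 of the 34 loci lower at 1 or more of the early times, 3 of the 29 higher at 16 h and 5 of the 27 called in the interaction. MYB54, WRKY24, AT2G19150 and AT2G43670 are named here after their values were seen, as are GPAT6, QRT1, AT5G62360, AT5G49350, AT1G15125 and AT5G03310 further on. Higher at 16 h and falling in slr-1 from 8 to 16 h were 21 loci (1.22% of all). Another 22 loci showed no called genotype difference at any of the 4 times, as did 65.6% of all loci tested. Only AT4G11290, AT4G23680, AT2G28780 and TLL1 were higher in the shy2-2 line at all 4 times, and AT2G21100 and NPC4 were lower at all 4. The shares of all loci tested with these patterns were not counted.

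**Figure D4:**
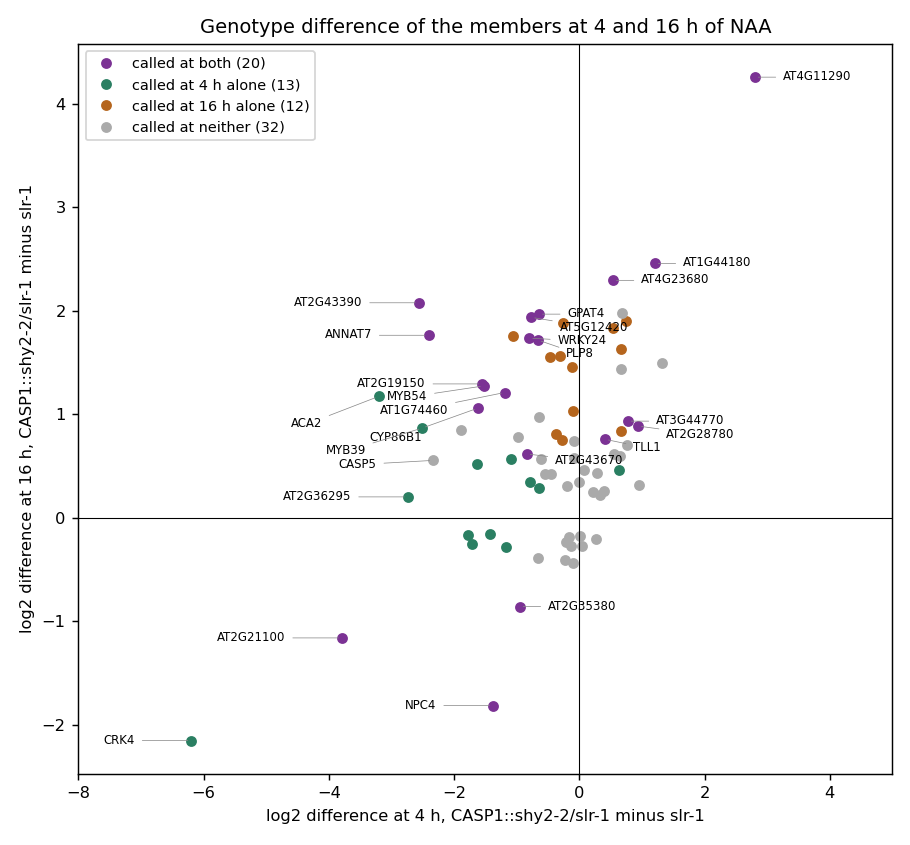
Log2 difference between the genotypes (the shy2-2 line minus slr-1) at 4 h (x axis) and at 16 h of NAA (y axis) for each of the 77 loci, coloured by the times at which the difference was called. The upper left part, lower at 4 h and higher at 16 h, holds GPAT4, CYP86B1, ANNAT7 and AT2G43390 among the 20 loci called at both times. The 4 h call of GPAT4 was lost in 7 alternatives.

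Both suberin hydroxylases of the set were among these 13. CYP86B1, which hydroxylates very long chain fatty acids, stood at 38.4, 35.6 and 57.2 CPM in untreated slr-1, 144, 154 and 137 at 2 h, 256, 209 and 171 at 4 h, 146, 172 and 201 at 8 h, 21.1, 21.3 and 35.2 at 16 h and 5.62, 5.10 and 6.39 at 24 h. The shy2-2 line held it at 39.2, 58.2 and 45.8 CPM in controls, 57.4, 72.1 and 33.4 at 2 h, 88.2, 63.3 and 55.9 at 4 h, 61.6, 65.5 and 72.1 at 8 h, 51.9, 59.1 and 49.6 at 16 h and 45.4, 40.5 and 38.9 at 24 h. The slr-1 libraries were thus all above the libraries of the shy2-2 line from 2 to 8 h and all below them at 16 and 24 h. Its genotype difference was -1.43 ± 0.24 (log2, SE) at 2 h, adjusted p = 7.03e-05, and 1.06 ± 0.24 at 16 h, adjusted p = 0.00341, which became 0.0644 with the 2 groups fitted alone. In slr-1 it fell by 2.79 ± 0.25 from 8 to 16 h (adjusted p = 4.93e-09), while in the shy2-2 line the change was -0.37 ± 0.23 (adjusted p = 0.316).

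CYP86A1, which hydroxylates shorter fatty acids for root suberin, stood at 213, 208 and 314 CPM in slr-1 controls, 398, 424 and 776 at 8 h, 198, 185 and 292 at 16 h and 9.94, 9.02 and 12.4 at 24 h. The corresponding shy2-2 line values were 170, 212 and 190 CPM in controls, 242, 293 and 226 at 8 h, 405, 412 and 359 at 16 h and 229, 208 and 207 at 24 h. Replicate 3 was the highest of the 3 slr-1 libraries in the controls, at 8 h and at 16 h, and the genotypes were apart at both 8 and 16 h. The difference was -1.06 ± 0.25 at 8 h (adjusted p = 0.0056, and 0.0851 at most when the 2 groups were fitted alone or slr-1 8 h replicate 3 was left out) and 0.81 ± 0.25 at 16 h (adjusted p = 0.0448). The call at 16 h was lost in 22 alternatives, with adjusted p up to 0.22. From 8 to 16 h CYP86A1 fell by 1.30 ± 0.26 in slr-1 (adjusted p = 0.000962, and 0.0856 with these groups alone).

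Among acyltransferases, GPAT4 stood at 390, 349 and 241 CPM at 4 h in slr-1 and at 281, 194 and 153 CPM in the shy2-2 line. These libraries overlapped, and its call as lower at 4 h was lost in 7 alternatives, with adjusted p up to 0.18. Its call at 2 h was lost in 2 alternatives. In slr-1 it held 178, 199 and 196 CPM at 8 h and 24.4, 22.6 and 38.0 CPM at 16 h. Libraries of the shy2-2 line held 168, 184 and 168 CPM at 8 h and 102, 104 and 124 CPM at 16 h. The genotypes overlapped at 8 h and stood well apart at 16 h, with a difference of 1.97 ± 0.22 (adjusted p = 1.5e-07). GPAT4 fell from 8 to 16 h in both genotypes, by 2.81 ± 0.22 in slr-1 (adjusted p = 8.2e-10) and by 0.71 ± 0.21 in the shy2-2 line (adjusted p = 0.0262, lost in 6 alternatives). AT5G12420 stood at 276, 304 and 350 CPM at 8 h and 41.7, 38.6 and 64.5 CPM at 16 h in slr-1, and at 264, 285 and 263 CPM and then 162.4, 167 and 220 CPM in the shy2-2 line. Its difference at 16 h was 1.93 ± 0.16 (adjusted p = 4.19e-10). GPAT6, a relative of GPAT4 known from floral cutin, held 70.9, 74.0 and 73.0 CPM at 16 h and 5.88, 5.08 and 6.31 CPM at 24 h in slr-1. At 16 h it did not pass the genotype test (0.46 ± 0.26, adjusted p = 0.3), although the libraries of the genotypes did not overlap.

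The 2 GDSL esterases of the set, AT1G74460 and AT5G37690, are described next. AT1G74460 stood at 517, 476 and 417 CPM at 4 h, 400, 449 and 511 at 8 h, 67.2, 55.2 and 96.1 at 16 h and 17.7, 15.9 and 16.2 at 24 h in slr-1. At these times the shy2-2 line held 250, 194 and 174, then 272, 307 and 286, then 171, 164.02 and 167, and then 126, 117 and 116 CPM. It was lower in the shy2-2 line at 4 h (-1.19 ± 0.20, adjusted p = 0.000172) and higher at 16 h (1.21 ± 0.21, adjusted p = 0.000159). AT5G37690 had the largest decline by the rule, -5.53 in slr-1 beside -0.04 in the shy2-2 line. It held 154, 167 and 308 CPM in slr-1 controls, 294, 265 and 673 at 8 h, 119, 115 and 124 at 16 h and 3.77, 3.22 and 3.65 at 24 h. The shy2-2 line held 166, 212 and 185 CPM in controls, 242, 284 and 181 at 8 h, 390, 397 and 255 at 16 h and 186, 177 and 182 at 24 h. No early genotype difference passed the test for it, and at 16 h it was higher in the shy2-2 line by 1.55 ± 0.32 (adjusted p = 0.0017).

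**Figure D5:**
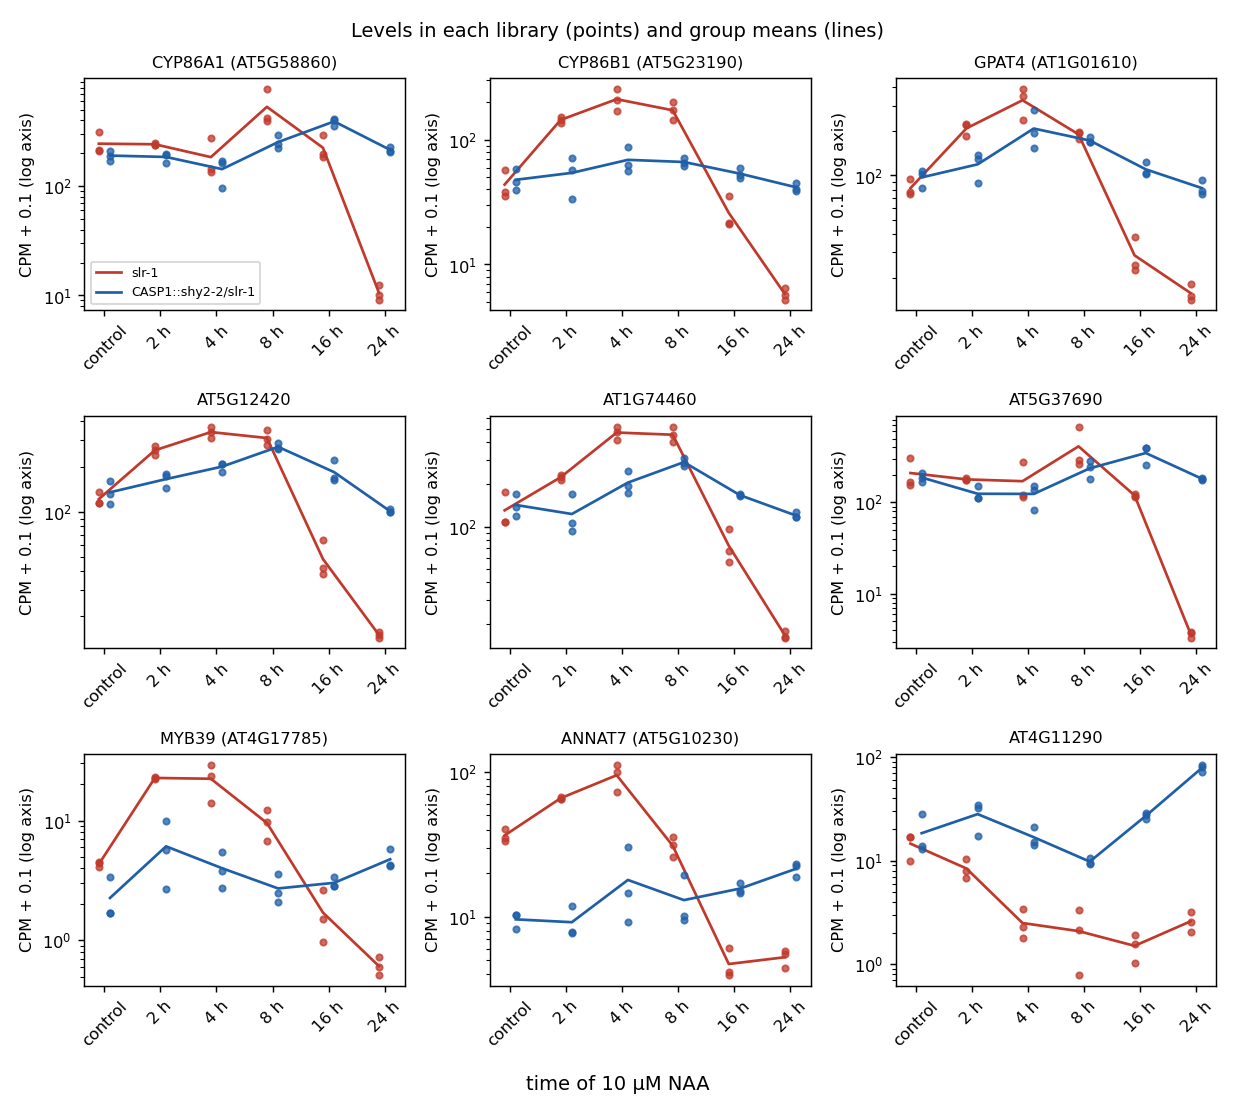
CPM plus 0.1 (log axis) of 9 of the 77 loci over the NAA course, slr-1 in red and the shy2-2 line in blue, with 1 point per library and lines through the means of 3. In CYP86B1, GPAT4, AT5G12420, AT1G74460, MYB39 and ANNAT7 the red line lies above the blue at 4 h and below it at 16 h, while AT4G11290 is higher in blue from 2 h on.

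Transcription factors of the set included MYB39, MYB54 and WRKY24. MYB39, a factor known to act on suberin genes in the endodermis, stood at 3.97, 4.31 and 4.39 CPM in untreated slr-1 and at 1.58, 3.3002 and 1.60 CPM in controls of the shy2-2 line, so that the genotypes were apart before NAA as well. Its slr-1 libraries held 22.1, 23.2 and 22.4 CPM at 2 h, 29.2, 23.5 and 14.0 at 4 h, 1.40, 0.867 and 2.56 at 16 h and 0.625, 0.411 and 0.495 at 24 h. Those of the shy2-2 line held 5.57, 9.81 and 2.60 CPM at 2 h, 5.38, 2.61 and 3.71 at 4 h, 2.75, 3.26 and 2.76 at 16 h and 5.74, 4.13 and 4.10 at 24 h. The early slr-1 values were all above, and the 16 h values all below, those of the shy2-2 line. Its genotype difference was -2.51 ± 0.37 at 4 h (adjusted p = 2.67e-05), while 0.86 ± 0.41 at 16 h did not pass the test (adjusted p = 0.211). MYB54, a factor linked to secondary walls, was lower at 2 h (-1.06 ± 0.28), 4 h (-1.53 ± 0.28) and 8 h (-1.45 ± 0.27) and higher at 16 h (1.27 ± 0.28), with adjusted p of 0.00856, 0.000458, 0.000543 and 0.00266. At 16 h it stood at 7.03, 6.66 and 9.03 CPM in slr-1 and 19.6, 20.8 and 14.1 CPM in the shy2-2 line. WRKY24 held 5.41, 5.62 and 7.62 CPM against 22.5, 21.3 and 17.9 CPM at 16 h, a difference of 1.73 ± 0.25 (adjusted p = 1.73e-05).

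Proteins of membranes and walls made up another group. AT5G44550, annotated in the UPF0497 family to which the CASP proteins belong, stood at 324, 330 and 696 CPM at 8 h, 159, 151 and 201 at 16 h and 8.25, 8.48 and 10.1 at 24 h in slr-1. Values in the shy2-2 line were 279, 295 and 198 CPM, then 386, 336 and 315, and then 175, 177 and 178. The genotypes did not overlap at 16 h, with a difference of 1.03 ± 0.30 (adjusted p = 0.0286, lost in 5 alternatives). CASP5 itself was hardly detected: its slr-1 controls held 0.937, 0.333 and 6.43 CPM, no slr-1 library had a read at 24 h, and it was not a member without control replicate 3. PDLP4, a plasmodesmal protein, held 47.3, 46.8 and 94.0 CPM at 8 h, 15.9, 14.6 and 21.7 at 16 h and 0.729, 0.714 and 0.730 at 24 h in slr-1. Its 8 h libraries of the shy2-2 line held 15.5, 17.7 and 10.3 CPM and its 24 h libraries 14.8, 15.0 and 13.4 CPM. It was lower in the shy2-2 line at 8 h (-2.10 ± 0.31, adjusted p = 3.33e-05), fell by 1.90 ± 0.31 in slr-1 from 8 to 16 h (adjusted p = 9.39e-05), and differed by -0.16 ± 0.31 at 16 h (adjusted p = 0.816).

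AT2G21100, a dirigent-like protein of the family that guides lignin and lignan coupling, was among those lower in the shy2-2 line throughout 2 to 16 h. In slr-1 it stood at 14.3, 12.5 and 25.2 CPM in controls, 67.6, 71.4 and 61.1 at 4 h, 83.4, 99.1 and 113 at 8 h, 13.7, 11.8 and 16.7 at 16 h and 1.64, 0.606 and 1.07 at 24 h. The shy2-2 line held 4.05, 5.22 and 6.35 CPM in controls, 5.40, 4.86 and 4.20 at 4 h, 11.2, 11.0 and 8.96 at 8 h, 7.17, 6.03 and 5.54 at 16 h and 11.8, 11.3 and 11.2 at 24 h. All slr-1 libraries were higher up to 16 h and lower at 24 h. The difference was -3.79 ± 0.29 at 4 h (adjusted p = 2.74e-10) and -1.16 ± 0.27 at 16 h (adjusted p = 0.00515, and up to 0.0802 without replicate 3 of both 16 h groups or with the libraries lacking a code suffix alone). NPC4, a phospholipase C, likewise differed by -1.55 ± 0.33 at 2 h (adjusted p = 0.00145) and -1.82 ± 0.33 at 16 h (adjusted p = 0.000318). The peroxidase AT2G35380 held 198, 200 and 222 CPM at 16 h in slr-1 and 110, 121 and 108 CPM in the shy2-2 line (-0.86 ± 0.22, adjusted p = 0.0124, and up to 0.0936 without replicate 3 of both groups). The other peroxidase, AT4G11290, moved the opposite way. Its slr-1 libraries held 16.9, 9.87 and 16.7 CPM in controls and 1.82, 0.923 and 1.45 at 16 h, while those of the shy2-2 line held 13.6, 28.4 and 12.9 CPM in controls, 28.5, 25.1 and 27.2 at 16 h and 84.7, 71.2 and 79.5 at 24 h. Untreated libraries overlapped, and from 2 h on the genotypes were apart, with a difference of 4.26 ± 0.40 at 16 h (adjusted p = 6.49e-09).

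Pectin enzymes were represented by AT2G19150 and QRT1, both annotated as pectin lyase-like, and by AT5G62360, an inhibitor of invertase or pectin methylesterase. QRT1, a pectin methylesterase known from pollen separation, stood at 8.00, 8.59 and 11.7 CPM at 16 h in slr-1 and 26.5, 28.7 and 22.0 CPM in the shy2-2 line (1.46 ± 0.23, adjusted p = 7.32e-05). It overlaps AT5G55600 on the opposite strand, a gene with a mean of 66.1 CPM, and the strand setting of the counting is not stated, so its counts are uncertain. AT2G19150 differed by -1.55 ± 0.22 at 4 h (adjusted p = 1.03e-05) and 1.29 ± 0.23 at 16 h (adjusted p = 0.000317). AT5G62360, which stood at 9.79, 8.02 and 5.41 CPM in untreated slr-1 and at 1.53, 2.27 and 0.914 CPM in controls of the shy2-2 line, differed by 1.56 ± 0.38 at 16 h (adjusted p = 0.0071, lost in 4 alternatives with values up to 0.278). TBL4, a relative of cell wall acetyltransferases, and AT5G49350, a glycine-rich protein, are next to each other on chromosome 5, and both rose in the shy2-2 line from 2 to 16 h, by 1.54 ± 0.38 (adjusted p = 0.00128) and 0.90 ± 0.34 (adjusted p = 0.0299, lost in 6 alternatives). AT5G49350 also rose in slr-1, from 49.1, 49.2 and 46.4 CPM to 89.0, 103 and 88.1 CPM, a call lost in 31 alternatives. TBL4 overlapped there, at 12.6, 11.0 and 11.6 CPM and then 11.1, 10.3 and 15.2 CPM.

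Other lipid and membrane proteins showed both courses. PLP8, a patatin-like lipase, stood at 34.0, 38.4 and 45.8 CPM at 8 h and 6.85, 5.99 and 8.88 CPM at 16 h in slr-1, and at 29.7, 31.3 and 27.8 and then 21.1, 23.8 and 26.0 CPM in the shy2-2 line. It fell by 2.50 ± 0.15 in slr-1 (adjusted p = 3.8e-12), and the change in the shy2-2 line was -0.38 ± 0.14 (adjusted p = 0.0697). ANNAT7, an annexin and so a calcium-dependent membrane-binding protein, held 40.4, 35.02 and 33.5 CPM in controls, 65.4, 65.2 and 66.7 at 2 h, 112, 99.5 and 72.5 at 4 h, 3.83, 4.06 and 5.94 at 16 h and 4.29, 5.43 and 5.71 at 24 h in slr-1. Its values in the shy2-2 line were 10.2, 8.13 and 10.1 CPM in controls, 7.67, 11.7 and 7.79 at 2 h, 30.0, 9.10 and 14.4 at 4 h, 14.5, 15.0 and 17.1 at 16 h and 23.1, 22.2 and 18.7 at 24 h. The genotypes were apart at each of these times, before NAA as well (ANNAT7 is 1 of the 27 loci with a low start), and in opposite order at 16 and 24 h. ANNAT7 had the largest interaction for 2 to 16 h in the set, 4.64 ± 0.44 (adjusted p = 7.32e-08). AT4G23680, a polyketide cyclase or lipid transport protein, was higher in the shy2-2 line before NAA as well, at 250, 216 and 262 CPM against 138, 128 and 175, and its difference was 1.14 ± 0.15 at 2 h (adjusted p = 5.64e-06) and 2.29 ± 0.16 at 16 h (adjusted p = 1.77e-11). TLL1, a triacylglycerol lipase-like protein, differed less, by 0.86 ± 0.10 at 2 h (adjusted p = 8.92e-07) and 0.76 ± 0.10 at 16 h (adjusted p = 6.58e-06).

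Loci with no annotated function were also among those that differed. AT2G43390 stood at 26.2, 25.8 and 17.4 CPM at 4 h, 0.901, 0.979 and 1.48 at 16 h and 0.156, 0.130 and 0.182 at 24 h in slr-1. The shy2-2 line held 4.77, 3.95 and 3.02, then 3.79, 3.90 and 6.44, and then 3.95, 3.51 and 3.07 CPM. Its difference was -2.56 ± 0.29 at 4 h (adjusted p = 4.66e-07) and 2.08 ± 0.33 at 16 h (adjusted p = 6.15e-05), and its fall in slr-1 from 8 to 16 h was the largest of the set, 4.24 ± 0.33 on the log2 scale (adjusted p = 6.8e-10). AT2G36295 fell by 3.19 ± 0.36 over that interval in slr-1 (adjusted p = 3.98e-07) but did not differ in the test at 16 h (0.20 ± 0.37, adjusted p = 0.804). The noncoding locus AT3G25795 rose in the shy2-2 line from 2 to 16 h by 1.93 ± 0.40 (adjusted p = 0.000226), and at 16 h it held 1.49, 1.18 and 0.552 CPM in slr-1 and 5.10, 4.10 and 1.60 CPM in the shy2-2 line.

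Hormone and signalling genes showed weaker or other courses. LOG1, which activates cytokinins, was higher in the shy2-2 line at 2 h (1.11 ± 0.34, adjusted p = 0.0204, lost in 5 alternatives) and 16 h (1.63 ± 0.35, adjusted p = 0.00279, lost in 2 alternatives with values up to 0.193). RBOHB, an NADPH oxidase, was higher at 8 h (1.74 ± 0.27, adjusted p = 6.87e-05) and 16 h (1.90 ± 0.28, adjusted p = 2.08e-05), and it overlaps AT1G09100 on the opposite strand, whose mean was 54.3 CPM. RALF1, a peptide of the alkalinization family, was lower at 4 h (-0.79 ± 0.13, adjusted p = 0.000127) and fell in slr-1 by 0.60 ± 0.13 from 8 to 16 h (adjusted p = 0.00301). GA20OX2, a gibberellin biosynthesis gene, stood at 8.83, 9.23 and 2.43 CPM in untreated slr-1 and at 0.151, 0.0206 and 0.0508 CPM in controls of the shy2-2 line, and the genotypes overlapped at 24 h, at 0.677, 0.887 and 1.25 CPM in slr-1 and 1.53, 1.13 and 1.69 CPM in the shy2-2 line. CYP82C4, an enzyme of the response to low iron, varied widely, with 96.8, 68.8 and 292 CPM in slr-1 controls, 2.30, 1.15 and 33.7 at 4 h and 265, 152 and 209 at 16 h. The values overlapped those of the shy2-2 line, which were 3.80, 7.94 and 25.7 CPM at 4 h and 250, 320 and 222 at 16 h, and no genotype difference from 2 to 16 h passed the test. AT3G25190, of the vacuolar iron transporter family, rose from 8 to 16 h in both, by 1.11 ± 0.30 in slr-1 (adjusted p = 0.0178, not called without slr-1 16 h or 8 h replicate 3) and 1.86 ± 0.31 in the shy2-2 line (adjusted p = 0.000223).

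Membrane transporters included AT2G28780, AT5G38820 and SWEET16. AT2G28780, annotated as an efflux pump subunit, held 400, 364 and 314 CPM in slr-1 controls, 79.7, 87.2 and 98.8 at 2 h, 151, 128 and 132 at 16 h and 61.4, 85.8 and 94.0 at 24 h. At the same times the shy2-2 line held 191, 231 and 188, then 214, 139 and 230, then 260, 253 and 240 and then 164.45, 152 and 143 CPM. The order of the genotypes in controls was thus the reverse of that from 2 h on, with differences of 1.12 ± 0.22 at 2 h (adjusted p = 0.000719) and 0.88 ± 0.22 at 16 h (adjusted p = 0.0101, and 0.0632 without slr-1 16 h replicate 2). AT5G38820, an amino acid transporter, rose in the shy2-2 line from 2 to 16 h by 2.23 ± 0.69 (adjusted p = 0.00852), with libraries from 3.06 to 6.16 CPM and then 18.8 to 24.9 CPM. SWEET16, a sugar transporter, fell from 8 to 16 h in slr-1 by 1.47 ± 0.27 (adjusted p = 0.000372) and in the shy2-2 line by 0.96 ± 0.26 (adjusted p = 0.0189, lost in 6 alternatives). At 24 h it held 7.60, 7.22 and 8.29 CPM in slr-1 and 22.7, 23.6 and 20.96 CPM in the shy2-2 line.

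The remaining members named by the rule were enzymes and proteins of varied kinds. ACA2, an alpha carbonic anhydrase, was lower in the shy2-2 line at 4 h (-3.21 ± 0.54, adjusted p = 0.000144) and fell from 2 to 16 h in slr-1 (-4.67 ± 0.60, adjusted p = 7.05e-07) and in the shy2-2 line (-2.38 ± 0.55, adjusted p = 0.000709, and 0.0656 with these groups alone). It started low in the shy2-2 line, with untreated means of 0.520 CPM against 3.16 in slr-1. Its levels were small, with means of 0.793 CPM in the shy2-2 line at 4 h and 0.339 in slr-1 at 16 h. CYP76C1, a cytochrome P450, started low in the shy2-2 line, at 1.63, 3.16 and 2.13 CPM against 6.98, 6.95 and 12.7 CPM, and was lower there at 8 h (-2.60 ± 0.27, adjusted p = 9.27e-08). From 8 to 16 h it rose in the shy2-2 line by 1.34 ± 0.27 (adjusted p = 0.00173, and 0.0555 with these groups alone). It fell in slr-1 by 1.09 ± 0.25 (adjusted p = 0.00506, and up to 0.0889 with these groups alone or without slr-1 16 h replicate 2 or 8 h replicate 3). Its interaction from 2 to 16 h was 1.52 ± 0.37 (adjusted p = 0.0134, and 0.0511 without slr-1 16 h replicate 2). CYP94B1, of a family known to oxidise jasmonate conjugates, fell from 2 to 16 h in both genotypes, by 1.81 ± 0.23 in slr-1 (adjusted p = 6.27e-07) and by 1.62 ± 0.23 in the shy2-2 line (adjusted p = 3.03e-06). GLP9, a germin-like protein, was higher in the shy2-2 line at 2 h (1.34 ± 0.39, adjusted p = 0.016, lost in 7 alternatives), where its libraries held 71.5, 166 and 62.9 CPM against 39.5, 37.3 and 40.5 CPM in slr-1. Untreated, GLP9 had a low start in the shy2-2 line, with a mean of 7.72 CPM against 34.9 in slr-1. AT1G44180, a peptidase, held 2.70, 2.43 and 3.01 CPM at 16 h in slr-1 and 15.0, 16.1 and 13.3 CPM in the shy2-2 line. Controls were apart too, at 4.63, 5.16 and 7.89 and at 8.67, 11.0 and 10.4 CPM. The difference at 16 h was 2.46 ± 0.31 (adjusted p = 2.05e-06).

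AT3G44770, a putative transmembrane protein, was likewise higher in the shy2-2 line before NAA, at 8.97, 10.9 and 9.27 against 3.82, 5.28 and 4.81 CPM, and at 16 h (0.93 ± 0.16, adjusted p = 0.000201, and 0.0524 with these groups alone). AT4G13230, of the late embryogenesis abundant family, was lower in the shy2-2 line at 2 h (-2.06 ± 0.36, adjusted p = 0.000173) and rose there from 8 to 16 h by 1.65 ± 0.36 (adjusted p = 0.00325, and 0.128 with these groups alone). AT3G15356, a legume-type lectin with a low start in the shy2-2 line (untreated mean 4.04 CPM against 13.5), fell from 2 to 16 h in slr-1 (-3.61 ± 0.37, adjusted p = 2.11e-08) and in the shy2-2 line (-2.80 ± 0.36, adjusted p = 5.05e-07). AT1G49450, a WD40 repeat protein, also fell in slr-1 (-1.505 ± 0.23, adjusted p = 6.33e-06) and in the shy2-2 line (-0.67 ± 0.22, adjusted p = 0.0135, and up to 0.0694 without shy2-2 line 2 h replicate 2). AT1G66800, of the NAD(P)-binding Rossmann-fold family, rose in both from 2 to 16 h, by 0.95 ± 0.20 in slr-1 (adjusted p = 0.000362) and by 0.76 ± 0.20 in the shy2-2 line (adjusted p = 0.00241, and up to 0.0795 with these groups alone or without 16 h replicate 3). At 24 h it held 13.5, 14.1 and 17.6 CPM in slr-1 and 94.9, 82.5 and 78.6 CPM in the shy2-2 line. For these 3 the changes from 2 to 16 h had the same direction in the 2 genotypes.

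Members named for a large decline or a high control level included 4 more. AT4G24140, an alpha/beta hydrolase, held 163.42, 155 and 184 CPM at 16 h and 8.87, 7.94 and 9.46 CPM at 24 h in slr-1, beside 209, 206 and 176 and then 104, 98.7 and 105 CPM in the shy2-2 line. AT2G47200, an uncharacterised locus that overlaps AT2G47210, held 76.2, 76.4 and 72.8 CPM at 16 h and 3.28, 3.14 and 2.84 CPM at 24 h in slr-1, and rose there from 2 to 16 h by 0.86 ± 0.26 (adjusted p = 0.00691). Neither passed the genotype test at any time from 2 to 16 h. AT3G07720, a kelch repeat protein, was called higher in the shy2-2 line at 8 h (1.39 ± 0.40, adjusted p = 0.0207, lost in 8 alternatives), but its libraries overlapped, at 657, 563 and 178 CPM against 179, 157 and 206 CPM in slr-1. AT4G18340, a glycosyl hydrolase, started low in the shy2-2 line, at 55.7, 39.7 and 53.6 CPM against 203, 179 and 174 CPM, and was still lower there at 2 h (-1.07 ± 0.34, adjusted p = 0.0277, lost in 7 alternatives).

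Some of the 27 loci under 0.5 times the slr-1 level in the untreated shy2-2 line are given next. ERD5, a proline-degrading enzyme, stood at 1108, 1061 and 635 CPM in slr-1 controls and 230, 150 and 157 CPM in controls of the shy2-2 line. At 24 h it held 288, 236 and 226 CPM and 154, 146 and 178 CPM, so that slr-1 was still the higher genotype. In the shy2-2 line it stood at 681, 255 and 1029 CPM at 2 h, with replicate 2 the lowest, and no genotype difference passed the test from 2 to 16 h. AT4G36850, a PQ-loop membrane protein, held 12.7, 11.4 and 4.27 CPM in slr-1 controls but 0.553, 0.268 and 0.889 CPM in controls of the shy2-2 line, and under 0.3 CPM in all 6 libraries of 24 h. AT1G78460, a heme-binding protein, held 15.5, 13.7 and 4.32 CPM and 0.704, 0.433 and 0.330 CPM in the same controls. CRK4, a receptor-like kinase chosen for mention after its values were seen, held 2.54, 1.97 and 3.06 CPM in slr-1 controls and at most 0.163 CPM in all 18 libraries of the shy2-2 line, so that no decline could have been seen there. BGAL1, a beta-galactosidase, held 532, 589 and 268 CPM in slr-1 controls and 229, 141 and 198 CPM in controls of the shy2-2 line, and 117, 110 and 139 against 151, 149 and 174 CPM at 24 h. AT3G41768, an 18S ribosomal RNA whose reads cannot be told from those of its repeated copies, held 1304, 89.7 and 222 CPM in slr-1 controls and was not a member without replicate 1. Its shy2-2 line controls held 96.0, 121 and 150 CPM, inside the slr-1 range, so its low ratio rests on slr-1 replicate 1 and is no low start.

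Of the other genes of the pathway, taken from 28 lists of 261 loci, the following were read beside the set. Of 17 genes of suberin monomer synthesis and export, 2 were in the set, 7 met the slr-1 limit and 1 met that limit in both genotypes. At 2, 4 and 8 h, 12, 13 and 10 of the 17 were lower in the shy2-2 line and 0 higher, and at 16 h 8 were higher and 6 lower. The genes lower at 16 h included FAR1 (-2.46 ± 0.19, adjusted p = 1.01e-10) and FAR4 (-2.07 ± 0.11, adjusted p = 4.72e-14), fatty acyl reductases that make suberin alcohols. LACS2, an acyl-CoA synthetase, and the exporter ABCG6 were higher, by 2.01 ± 0.21 (adjusted p = 3.94e-08) and 1.82 ± 0.28 (adjusted p = 3.31e-05). From 8 to 16 h, 11 of the 17 fell in slr-1 and 6 in the shy2-2 line. Of 7 suberin MYB factors, all 7 fell in slr-1 and 3 in the shy2-2 line over that interval, and 4 were higher and 0 lower in the shy2-2 line at 16 h, MYB53 by 4.09 ± 0.21 (adjusted p = 2.81e-14). All 3 listed GDSL esterases were higher at 16 h. Of 14 Casparian strip genes, 9 met the slr-1 limit and 7 of these met it in the shy2-2 line as well. Of 12 xylem genes, 6 met the limit in slr-1 and the same 6 in the shy2-2 line, and 0 were in the set.

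Markers of tissues that a section could gain or lose were read beside the 16 h result. Of the 12 xylem genes 4 were lower and 0 higher in the shy2-2 line at 16 h, with summed levels of 288 to 413 CPM against 358 to 462 CPM in slr-1. Of 6 phloem genes 0 were called, with sums of 234 to 281 and 230 to 255 CPM. Of 9 root hair and epidermis genes 1 was higher, with sums of 5.71 to 10.9 and 3.99 to 8.79 CPM. The 6 root tip and cap genes summed to 5.21 to 11.5 CPM in the shy2-2 line and 4.39 to 7.86 CPM in slr-1 at 16 h, above the 0.318 to 3.00 and 0.277 to 3.40 CPM of 8 h, and 0 of them were called between the genotypes. Of 6 shoot and photosynthesis genes 0 were called, with sums of 63.4 to 135 and 91.0 to 167 CPM. Other lists moved as well. Of 14 Casparian strip genes, which mark the endodermis in which the transgene is expressed, 3 were higher and 0 lower in the shy2-2 line, with a median difference of 0.91 and sums of 496 to 534 CPM against 398 to 436 CPM in slr-1. Of 12 lateral root initiation genes 0 were higher and 3 lower, with sums of 177 to 194 and 215 to 250 CPM, which did not overlap. Of 10 cell cycle genes 0 were higher and 2 lower, with sums of 160.9 to 226 and 199.8 to 264 CPM. The pericycle and stele list had 1 of 5 higher and 1 lower, with sums of 967 to 1086 and 849 to 986 CPM, and the cortex list 0 higher and 1 lower of 2 tested, with sums of 3.42 to 6.11 and 5.14 to 5.85 CPM. Among lists that mark pathways and not tissues, 6 of 10 Aux/IAA repressor genes and 3 of 9 tested abscisic acid genes were lower and 0 of either higher, while 4 of 6 tested triterpene genes were higher and 0 lower. No list had a gene without reads in all libraries, and the part of these tissues and pathways in the result was not tested.

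Near the limits the choice of members is a matter of small differences. RALF1 (-1.51), AGP21 (-1.54) and AT2G36295 (-1.54) lay just inside the slr-1 limit, and DML3 (-1.49), AT5G55180 (-1.49) and AT5G37540 (-1.48) just outside. PLP8 (-0.50), RALF1 (-0.48) and AT4G23680 (-0.48) lay just inside the limit on the shy2-2 line, and THAS1 (-0.51), TBL3 (-0.52) and GRF11 (-0.52) just outside. Leaving out 1 control or 24 h library at a time, 54 of the 77 stayed members each time. Of these 54, 19 were higher and 2 lower in the shy2-2 line at 16 h, 27 fell and 0 rose in slr-1 from 8 to 16 h, and 18 were called in the interaction in favour of the shy2-2 line. These calls are from the main fit, whose shares of all loci are given above.

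By annotation, 75 of the 77 were protein coding. Cytochromes P450 made up 5 (6.49%, beside 0.81% of the loci tested), acyltransferases 3 (3.90 beside 0.51%), pectin-related proteins 3 (3.90 beside 0.58%), peroxidases 2 (2.60 beside 0.38%), the UPF0497 family 2 (2.60 beside 0.16%), MYB factors 2 (2.60 beside 0.59%), WRKY factors 1 (1.30 beside 0.26%) and kinases 1 (1.30 beside 5.37%), while laccases, expansins and aquaporins gave 0. These shares describe annotation words and were not tested. The 77 lie on all 5 chromosomes, with 19, 13, 14, 11 and 20 loci on chromosomes 1 to 5. For 11 of them the annotation overlaps another gene, at 10 on the opposite strand, and their counts are uncertain, as for AT5G03310 (beside AT5G03300, mean 158.6 CPM) and AT1G15125 (beside AT1G15120 on the same strand, mean 197.5 CPM).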

How the data were processed

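RNA was sequenced from 36 libraries, 3 in each of 12 groups. The deposited count tables hold whole reads per gene, and the submitters' processing notes list HTSeq 0.6.1, STAR 2.4.0a and cutadapt 1.3 beside the TAIR10 genome; the settings, strand use included, are not given in the sources used here. Each table ends in 5 summary entries (5.28 to 11.2% of its total), which were left out of library sizes and tests, and 0 value columns were unmatched. Files gave 32678 loci, 6182 of them with no read, and 31912 matched RefSeq TAIR10.1 for names and upstream sequence; coordinates are those of that build. Reads per library limit the precision of each value, and intervals cover the spread between libraries.

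CPM in the text is 1e+06 times the count over the sum of loci. Differences, SE and adjusted p come from edgeR 4.0.16 (R 4.3.3), with TMM factors (0.939 to 1.07), 1 quasi-likelihood fit of all 12 groups with 24 residual degrees of freedom, default filtering by expression (20939 loci kept) and Benjamini-Hochberg adjustment over all loci in each of 9 comparisons. The control and 24 h libraries chose the members, so comparisons that use them were not tested. The script was tested on simulated data. DESeq2 1.42.0, other scalings and filters, fits of the compared groups alone, library code suffixes, replicate blocks and leaving out libraries were the alternatives.

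Same-numbered libraries deviated together (every pair's correlation over 0.1) in 2 of 8 comparisons, with correlations from -0.50 to 0.74 over all 8. The 2 were the genotype difference at 16 h and the change from 8 to 16 h in the shy2-2 line. The main fit, which gave the calls, differences and SE of the Results, did not pair the libraries. Counts with the replicate number as a block are given in the last section as an alternative. Members and gene lists were chosen with earlier results of these data known. Named members are the 5 largest called differences each way in each comparison (mean log2 CPM of at least 1, groups apart), those in a gene list, the 10 with the largest decline, the 10 with the highest slr-1 control level, and the 3 nearest each limit; other names are given as chosen after their values were seen.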

Additional observations from a re-analysis of the deposited data

Results flagged for a closer look

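The change from 2 to 16 h of NAA differed between the genotypes at 27 of the 77 loci by the interaction term of edgeR's quasi-likelihood fit, each time in favour of the shy2-2 line. The largest differences among the named members, on the log2 scale, were 4.64 at ANNAT7, 2.97 at AT2G43390, 2.97 at the noncoding locus AT3G25795, 2.80 at GPAT4 and 2.79 at MYB39. The adjusted p of AT3G25795 was 0.00118, and it was 0.0539 with the compared groups fitted alone. Explanations were not tested.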

How the results depend on the processing

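For the 295 member values called in the 9 comparisons, 14231 values under the alternatives were read. The share of all loci called was not counted under any alternative, so the counts of members called under them have none beside them. Of these, 13506 were still called in the same direction, 725 were no longer called and 0 had the opposite sign, and 149 of the 295 stayed called throughout. Many alternatives left out a library of a group not compared, which acts only through the shared fit, so part of this agreement is built in. The stricter limits on adjusted p and log2 difference were applied to the main fit without a new one. With the replicate block, the genotype difference at 16 h counted 29 members higher and 4 lower, and the change from 8 to 16 h in the shy2-2 line 6 higher and 7 lower; of all calls 2 were lost under it, PLP8 and AT5G49350 at 8 h, and it moved no count by over 1.5 times. The cause was not tested for the following. At an adjusted p under 0.01, members higher were 4 at 2 h, 5 at 8 h, 4 for slr-1 from 2 to 16 h and 0 for slr-1 from 8 to 16 h, and members lower in the shy2-2 line were 10 from 2 to 16 h and 2 from 8 to 16 h. With a log2 difference of at least 1, 16 were lower at 2 h, 2 higher at 4 h, 5 higher at 8 h, 2 higher for slr-1 from 2 to 16 h and 2 lower for the shy2-2 line from 8 to 16 h. With the compared groups fitted alone, 6 were higher at 8 h, 12 for slr-1 from 2 to 16 h and 2 from 8 to 16 h, and for the shy2-2 line 5 were lower from 2 to 16 h and 3 higher and 2 lower from 8 to 16 h. With the suffix n of the library codes as a term, 12 rose in slr-1 and 35 in the shy2-2 line from 2 to 16 h, and 3 and 11 from 8 to 16 h. DESeq2 called 2 rises in slr-1 from 8 to 16 h. The next 3 alternatives were chosen after seeing the data. Leaving out replicate 3 of both 16 h groups gave 1 lower at 16 h. From 8 to 16 h it gave 0 rises in slr-1 and 13 falls in the shy2-2 line. Leaving out 2 h replicate 2 and 8 h replicate 3 of the shy2-2 line gave 3 rises in slr-1 from 8 to 16 h. Libraries without a suffix gave 4 rises in slr-1 over that interval. The shy2-2 line has 1 such library at 8 h, so counts that use this group are not given for them. Leaving out 1 library at a time, counts higher and lower ranged over 4 to 12 and 19 to 26 at 2 h, 4 to 11 and 21 to 28 at 4 h, 4 to 12 and 18 to 26 at 8 h, and 24 to 33 and 3 to 4 at 16 h. They ranged over 4 to 8 and 37 to 43 in slr-1 and 17 to 27 and 11 to 21 in the shy2-2 line from 2 to 16 h, 22 to 31 and 0 to 1 for the interaction, and 0 to 2 and 27 to 38 in slr-1 and 6 to 8 and 1 to 12 in the shy2-2 line from 8 to 16 h. The rule itself gave 76 to 100 loci without 1 library, 43 with limits of -2 and -0.5, 219 with -1 and -0.5 and 48 with -1.5 and -0.25. Loci under 1 CPM at 24 h are limited by depth.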
